A study of Mus musculus with 3 samples.

Results

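Immunoglobulin-type adhesion genes encode cell surface proteins with immunoglobulin-like domains outside the cell, and 8 of them were followed here in TFAP2A ChIP-seq of mouse melanocytes: Alcam, Mcam, Bcam, Ncam1, Ncam2, Nrcam, Chl1 and Cadm1. Every TFAP2A peak whose summit lay inside 1 of these genes or within 100 kb of it was taken as a member, with gene positions from GENCODE mouse version 1 on the mm9 build. The genes are 8 of 22367 protein-coding genes, and their windows held 65 of the 18528 peaks of replicate 1 and 64 of the 21459 peaks of replicate 2. The gene set was chosen from measured values as well as from function, because 1 of the strongest regions found in both replicates lies in Alcam and a strong peak found in replicate 1 alone lies in Ncam1. The fold enrichments of those regions, and the counts that follow from them, are therefore given as a description with no test.

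The cells were melan-a, an immortalised line of melanocytes derived from normal mouse embryonic skin, with the genotype Cdkn2a tm1RDp/tm1RDp in every sample. They received no treatment and were grown with 12-O-tetradecanoylphorbol 13-acetate and cholera toxin in the medium. TFAP2A-bound chromatin was precipitated with the AP-2alpha antibody 3B5 in 2 ChIP replicates from independent experiments, and 1 input sample served as the control for the peaks. Both replicates came from 1 cell line, so the spread between them is that of repeated experiments on that line and not of different animals. Only peak lists were used, so the sequencing depth is unknown and no value of the input could be set beside those of the ChIP. The lists hold no expression values, so the melanocyte label was not checked against marker genes.

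TFAP2A (AP-2 alpha) is a transcription factor of the neural crest and its derivatives, which binds DNA as a dimer at a GC-rich palindrome. Adhesion molecules of the immunoglobulin superfamily hold neighbouring cells together by binding the same or a related molecule on the next cell, and melanocytes use them in contacts with neighbouring cells of the skin. Alcam (CD166) and Mcam (CD146) are followed as surface markers in melanoma, Bcam (the Lutheran glycoprotein) is a laminin receptor, Ncam1 (CD56) and Ncam2 are neural cell adhesion molecules, Nrcam and Chl1 belong to the L1 family of axon guidance receptors, and Cadm1 (SynCAM1) is a nectin-like molecule.

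The DNA under the strongest regions is shown first, since the values below refer to it. The 10 shared regions of highest mean fold enrichment at the 8 genes and 4 further regions that the text describes are given as the 101 bases centred on the summit of the replicate 1 peak, on the plus strand of mm9. Capitals mark a TFAP2 site, written here as GCCNNNGG and searched on both strands, where overlapping matches on opposite strands run together. A match describes these letters only and is not evidence of binding to them.
Alcam 134.7 kb from the TSS, chr16:52319459-52319559: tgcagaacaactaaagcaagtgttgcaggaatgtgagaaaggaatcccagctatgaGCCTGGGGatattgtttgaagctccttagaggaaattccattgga
Alcam 61.8 kb from the TSS, chr16:52392318-52392418: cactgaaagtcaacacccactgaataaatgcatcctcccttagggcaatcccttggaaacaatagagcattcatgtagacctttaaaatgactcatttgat
Nrcam 26.5 kb from the TSS, chr12:45456349-45456449: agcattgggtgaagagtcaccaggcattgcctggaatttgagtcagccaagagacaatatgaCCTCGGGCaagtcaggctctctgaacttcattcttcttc
Alcam 131.4 kb from the TSS, chr16:52322780-52322880: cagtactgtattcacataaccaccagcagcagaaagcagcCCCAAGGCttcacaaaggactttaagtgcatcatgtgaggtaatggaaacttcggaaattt
Cadm1 205.9 kb from the TSS, chr9:47544169-47544269: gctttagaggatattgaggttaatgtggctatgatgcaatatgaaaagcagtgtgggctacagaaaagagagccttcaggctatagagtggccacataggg
Nrcam 217.5 kb from the TSS, chr12:45647370-45647470: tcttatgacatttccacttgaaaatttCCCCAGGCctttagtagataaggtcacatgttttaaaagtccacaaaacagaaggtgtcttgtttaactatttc
Cadm1 59.8 kb from the TSS, chr9:47398029-47398129: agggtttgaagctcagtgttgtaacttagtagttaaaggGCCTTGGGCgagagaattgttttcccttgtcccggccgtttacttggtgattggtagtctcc
Ncam1 69.0 kb from the TSS, chr9:49537814-49537914: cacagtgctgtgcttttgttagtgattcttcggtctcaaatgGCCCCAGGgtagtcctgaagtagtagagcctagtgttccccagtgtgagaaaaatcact
Nrcam 61.8 kb from the TSS, chr12:45491593-45491693: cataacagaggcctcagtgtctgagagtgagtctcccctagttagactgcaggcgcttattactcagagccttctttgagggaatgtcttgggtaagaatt
Alcam 25.4 kb from the TSS, chr16:52428772-52428872: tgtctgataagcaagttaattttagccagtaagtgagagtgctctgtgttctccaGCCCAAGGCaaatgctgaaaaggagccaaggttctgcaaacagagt
Mcam upstream of its TSS, chr9:43941446-43941546: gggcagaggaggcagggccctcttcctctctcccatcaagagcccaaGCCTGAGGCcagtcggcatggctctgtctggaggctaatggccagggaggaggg
Nrcam 1.2 kb from the TSS, chr12:45430993-45431093: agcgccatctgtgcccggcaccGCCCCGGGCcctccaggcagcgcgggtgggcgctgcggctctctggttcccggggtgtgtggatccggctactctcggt
Bcam, strongest region of its window, chr7:20382712-20382812: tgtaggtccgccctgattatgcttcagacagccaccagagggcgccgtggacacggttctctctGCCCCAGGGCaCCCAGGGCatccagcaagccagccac
Ncam1 76.0 kb from the TSS, replicate 1 alone, chr9:49530833-49530933: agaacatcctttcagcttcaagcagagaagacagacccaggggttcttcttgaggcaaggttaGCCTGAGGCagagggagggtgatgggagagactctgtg

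All 10 of these strongest regions lay inside the gene they were assigned to, each in an intron, and 7 of them held a TFAP2 site. By gene, 4 were in Alcam, 3 in Nrcam, 2 in Cadm1 and 1 in Ncam1. The regions without a capital letter are those of Alcam at 61.8 kb, Cadm1 at 205.9 kb and Nrcam at 61.8 kb. The first of these carries the letters TGACTCA of an AP-1 site on its right side, and the Nrcam region at 26.5 kb carries the same site on the other strand beside its TFAP2 site.

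A region was called shared when peaks of both replicates overlapped by at least 1 bp. Merging overlapping peaks gave 76 regions at the 8 genes, of which 52 were shared, 13 were found in replicate 1 alone and 11 in replicate 2 alone. Among the replicate 1 peaks at the 8 genes 52 of 65 were shared, or 80.0% (exact Clopper-Pearson 95% interval, 68.2 to 88.9%), against 87.1% of that whole list. For replicate 2 the count was 53 of 64, or 82.8% (exact interval, 71.3 to 91.1%), against 76.0% of the whole list. The first share lay below that of its list and the second above it. Ncam1, chosen in part for a peak of replicate 1 alone, gave 6 of the 13 regions found in replicate 1 alone. Of its 14 replicate 1 peaks 8 were shared. The intervals given cover counting error only, and neighbouring regions of 1 gene are not independent of each other. The shares were not tested against those of the lists.

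**Figure D1:**
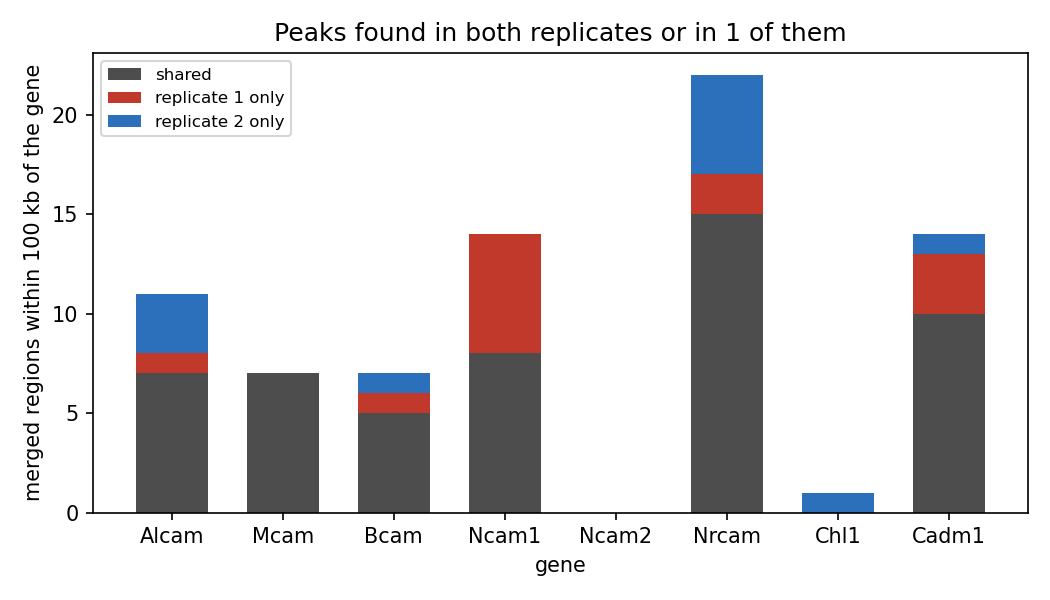
Number of merged TFAP2A regions (y axis) within 100 kb of each of the 8 genes (x axis), stacked by whether a region was found in both replicates, in replicate 1 alone or in replicate 2 alone. Nrcam holds 15 shared regions and Ncam2 no region, and the 6 regions of Ncam1 found in 1 replicate alone are all from replicate 1.

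Of the 8 genes 6 had a shared region within their window, or 75.0%, where 71.7% of all protein-coding genes had one. A shared region within the promoter, here from 5 kb before to 1 kb after any TSS of the gene itself, was present at 3 of the 8, namely Alcam, Mcam and Nrcam, where 17.0% of all protein-coding genes had one. The number of shared regions was 15 at Nrcam, 10 at Cadm1, 8 at Ncam1, 7 at Alcam, 7 at Mcam, 5 at Bcam, and 0 at Ncam2 and Chl1. The windows differ in length with the genes, from 208.3 kb at Mcam to 623.6 kb at Ncam2. Per 100 kb of window the order changed, with 3.36 shared regions at Mcam, 3.17 at Nrcam, 2.33 at Bcam, 1.90 at Cadm1, 1.73 at Alcam and 1.61 at Ncam1, against a median of 0.815 and an upper quartile of 1.62 over all protein-coding genes.

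**Figure D2:**
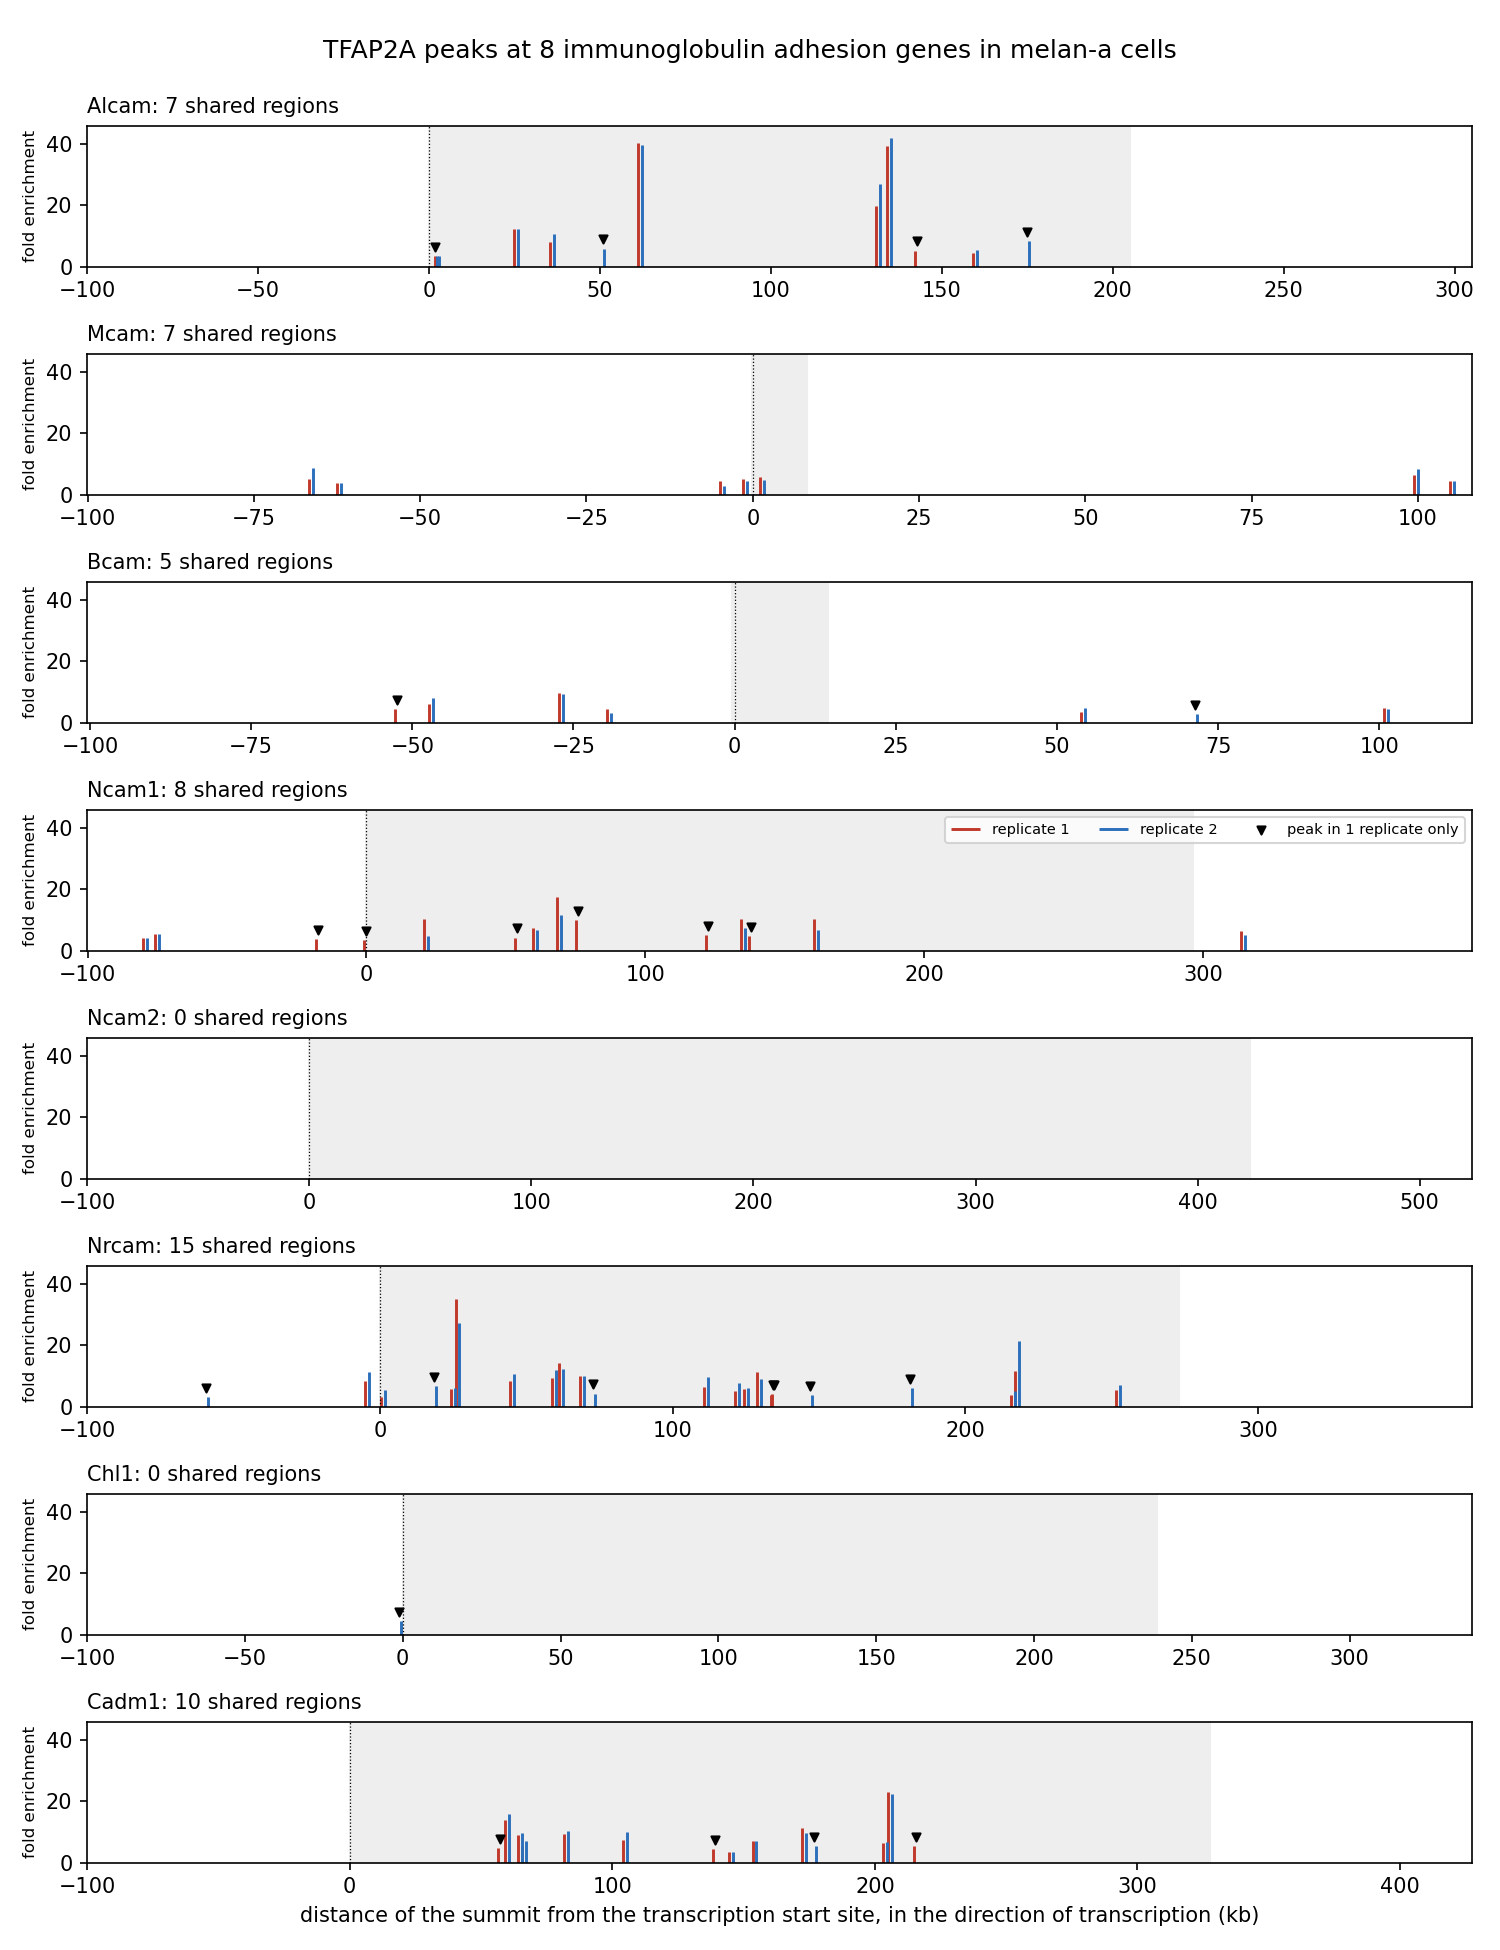
Each panel is 1 gene with 100 kb to either side (grey, gene body), the x axis is the distance of the summit from the TSS in the direction of transcription (kb) and bar height is the fold enrichment over background in replicate 1 (red) and replicate 2 (blue), with the bars of a region drawn side by side. Black triangles mark peaks of 1 replicate alone. The tall bars of Alcam, at 39.4 to 42.0, stand inside the gene at 61.8 and 134.7 kb, while all bars at Mcam and Bcam stay below 10.

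Alcam (chr16:52249109-52454187, minus strand) codes for an adhesion receptor that binds itself on other cells and CD6 on lymphocytes. It held 8 peaks in replicate 1 and 10 in replicate 2. All 7 shared regions were in its introns, 6 of them in the long intron 1 of the full-length transcript. The strongest, 134.7 kb from the TSS in intron 1, reached 39.4-fold enrichment in replicate 1 and 42.0 in replicate 2 (40.7 ± 1.85, SD, n = 2) and ranked 12 among 16024 shared regions by that mean. Its -log10 p was 198.7 and 201.1. At 61.8 kb, also in intron 1, the values were 40.5 and 39.6 (40.05 ± 0.646, SD, n = 2), with a rank of 16. The replicates were thus close to each other at both regions, and their summits lay 13 bp and 1 bp apart.

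A weaker Alcam region stood 3321 bp from the strongest one, at 131.4 kb, with 19.9 in replicate 1 and 27.0 in replicate 2 (23.5 ± 5.01, SD, n = 2). At 25.4 kb the enrichment was 12.2 in each replicate. The shared region nearest to a TSS of Alcam lay 814 bp downstream of the start of a shorter transcript and 2.4 kb from the start of the full-length one, with 3.63 and 3.36 (3.49 ± 0.190, SD, n = 2). This promoter region was the weakest of the 7 shared regions of Alcam. The sequence at 131.4 kb holds, besides its TFAP2 site, the letters ACAAAGG, a SOX site, and TCATGTG, the M-box that the melanocyte factor MITF can bind. Over the shared regions of the 8 genes, a SOX site was at 5.77% of summits and 3.85% of windows 400 bp to either side. For the M-box these shares were 3.85% and 1.92%.

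Alcam also had 1 peak in replicate 1 alone, at 5.23, and 3 in replicate 2 alone. The strongest of the latter lay in intron 8, 174.8 kb from the TSS, with 8.26 in replicate 2, and the nearest summit of replicate 1 was 15.2 kb away. Another, 125 bp downstream of the shorter transcript's start, reached 3.35 in replicate 2 and lay 0.7 kb from the shared promoter region.

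Mcam (chr9:43942552-43950810, plus strand) codes for a receptor of vessel walls and of melanoma cells. With 8.26 kb it is the shortest of the 8 genes, and most of its window belongs to other genes. It held 7 peaks in each replicate, and all 7 regions were shared. For 3 of them the nearest protein-coding TSS was that of Mcam. The region 1056 bp upstream of the nearest Mcam TSS, whose window holds GCCTGAGGC at its centre, had 5.15 in replicate 1 and 4.60 in replicate 2 (4.87 ± 0.386, SD, n = 2). In intron 1, 523 bp upstream of the start of another Mcam transcript, the values were 5.82 and 4.85 (5.33 ± 0.688, SD, n = 2). At 4493 bp upstream of the nearest Mcam TSS they were 4.54 and 2.80. Both upstream regions also lie in a predicted gene, Gm10687. All 3 regions were lower in replicate 2, by ratios of 0.894, 0.833 and 0.616.

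The strongest shared region of the Mcam window, with 6.55 and 8.24 (7.40 ± 1.20, SD, n = 2), lay 97455 bp from the nearest Mcam TSS and 270 bp upstream of a TSS of Cbl, a ubiquitin ligase gene. The others were at Usp2 (5.06 and 8.64, and 3.67 and 3.94) and upstream of Ccdc153. Of the 7 regions 6 were in a promoter of some gene, and none exceeded 8.64 in either replicate.

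Bcam (chr7:20341480-20356365, minus strand), the laminin receptor gene, held 6 peaks in each replicate and 5 shared regions. None lay in the gene, none in its promoter, and none had Bcam as the nearest protein-coding TSS. The strongest, with 9.71 in replicate 1 and 9.26 in replicate 2 (9.48 ± 0.318, SD, n = 2), was 604 bp upstream of a TSS of Cblc and holds 3 TFAP2 sites in the window shown. All 5 shared regions were in a promoter of some gene, with Bcl3, Cblc, Tomm40 or Apoc2 as the nearest protein-coding TSS, and all 5 held a TFAP2 site. The shared region closest to a Bcam TSS was 19.0 kb upstream, with 4.46 and 3.28. A replicate 1 peak of 4.34 lay 195 bp upstream of Bcl3, and a replicate 2 peak of 2.81 lay 56 bp upstream of Apoe, each found in 1 replicate alone.

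Ncam1 (chr9:49310257-49607027, minus strand) codes for the neural cell adhesion molecule that carries polysialic acid in developing brain. It held 14 peaks in replicate 1 and 8 in replicate 2, with 8 regions shared, 6 found in replicate 1 alone and 0 in replicate 2 alone. The ratio of its replicate 2 count to its replicate 1 count was 0.571, where those of the other members with peaks in both replicates ran from 0.846 to 1.25 and that of the whole lists was 1.16. Its strongest shared region, 69.0 kb from the TSS in intron 1, had 17.6 in replicate 1 and 11.7 in replicate 2 (14.7 ± 4.20, SD, n = 2). At 21.2 kb the values were 10.4 and 4.77 (7.57 ± 3.95, SD, n = 2), at 135.2 kb 10.4 and 7.52, and at 161.3 kb 10.2 and 6.76. Replicate 2 was the lower at each of these regions.

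Over its 8 shared regions the ratio of replicate 2 to replicate 1 had a median of 0.765 and a range of 0.461 to 1.06, and 6 of 8 were below 1. Over all shared regions the median ratio was 1.05 and 42.1% were below 1. The 2 regions above 1 were the upstream ones, 75.2 kb (5.27 and 5.57) and 79.4 kb (4.10 and 4.15) before the TSS. Within 1 Mb to either side of Ncam1, leaving out its own window, 13 of 18 shared regions were also lower in replicate 2, with a median ratio of 0.890, while the whole flanks out to 5 Mb had medians of 1.10 (12 of 37 lower) and 1.12 (18 of 37 lower). All of chromosome 9 outside its window had a median of 1.05 over 894 shared regions. Among 1874 protein-coding genes with at least 7 shared regions in the window, 3 (0.160%) had a median ratio at or below that of Ncam1. The median over those genes was 1.04. Ncam1 was chosen in part for a peak of replicate 1 alone, so this share is a description and not a test.

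The strongest peak of Ncam1 found in 1 replicate, which was among the reasons for choosing the gene, had a fold enrichment of 9.90 and a -log10 p of 47.1 in replicate 1, in intron 1 at 76.0 kb. It ranked 2 among the 2394 replicate 1 peaks with no overlapping replicate 2 peak, whose median was 3.99 and highest value 10.0. In the whole replicate 1 list it was in the upper 16.7%. The nearest replicate 2 summit, 7.0 kb away, was that of the shared region at 69.0 kb. The other 5 peaks of replicate 1 alone had 3.32 to 4.98, and 1 of them, with 3.32, lay 115 bp upstream of an Ncam1 TSS. No shared region lay in an Ncam1 promoter. Ncam2 (chr16:81200942-81624530, plus strand), the relative of Ncam1 best known from the olfactory system, had no peak in either list within 100 kb, and the nearest shared region lay 602.4 kb from the gene.

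**Figure D3:**
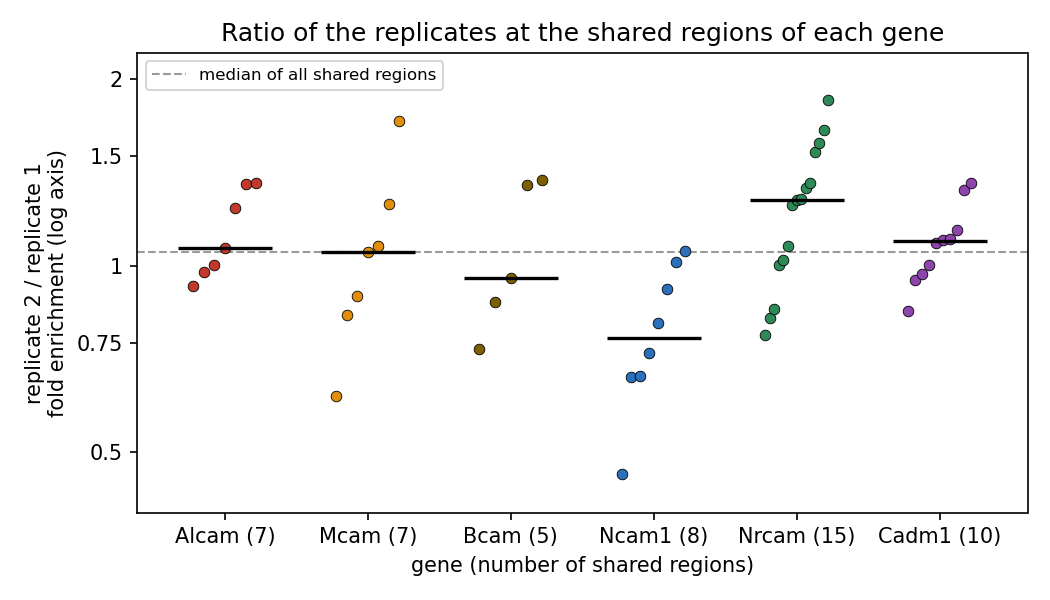
Ratio of the fold enrichment in replicate 2 to that in replicate 1 (log axis) at each shared region of the 6 genes that have any, with the number of regions after each gene name. Black bars are medians and the dashed line is the median of all 16024 shared regions, 1.05. Ncam1 has the lowest median, 0.765, and Nrcam the highest, 1.27.

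Nrcam (chr12:45429872-45702951, plus strand) codes for an L1 family receptor that links the membrane to ankyrin. It held 17 peaks in replicate 1 and 21 in replicate 2, and its 15 shared regions are more than 99.7% of protein-coding genes had in their windows, which are mostly shorter (median, 215.4 kb). Per 100 kb of window Nrcam stood above 94.5% of the genes, and Mcam above 95.3%. Of these 14 were in introns of Nrcam and 15 of 15 had an Nrcam TSS as the nearest. Neighbouring shared regions were a median of 8.88 kb apart, against 42.6 kb between neighbours over all shared regions. The strongest, 26.5 kb from the TSS in intron 1, had 35.2 in replicate 1 and 27.2 in replicate 2 (31.2 ± 5.65, SD, n = 2) and ranked 54 of 16024. At 217.5 kb in intron 9 the values were 11.6 and 21.4 (16.5 ± 6.94, SD, n = 2), the widest gap between replicates at the 8 genes by SD. The region at 61.8 kb in intron 2 had 14.3 and 12.1 (13.2 ± 1.51, SD, n = 2).

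Close to the start of Nrcam, a region 4.35 kb upstream had 8.42 and 11.4 (9.93 ± 2.13, SD, n = 2), and the region nearest to a TSS, 1072 bp downstream of it in intron 1, had 3.20 and 5.29 (4.25 ± 1.48, SD, n = 2). Another, 2.04 kb upstream of the start of a short internal transcript in intron 27, had 5.57 and 7.14. Of the 15 shared regions 12 were higher in replicate 2, with a median ratio of 1.27 and a range of 0.773 to 1.85. Nrcam thus leaned towards replicate 2 where Ncam1 leaned towards replicate 1, and the difference between the genes was not tested, since regions are not replicates of a condition. Replicate 2 alone gave 5 peaks, the strongest 6.63 at 18.3 kb, and replicate 1 alone gave 2, of 3.92 and 4.02.

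Chl1 (chr6:103460870-103699671, plus strand), the close homologue of L1, held 1 peak in its window of 438.8 kb. It was found in replicate 2 alone, 1113 bp upstream of the TSS, with a fold enrichment of 4.31 and a -log10 p of 8.72, and its summit had no TFAP2 site within 50 bp. The nearest replicate 1 summit was 599.0 kb away. Within the L1 family the counts of shared regions thus ran from 15 at Nrcam to 0 at Chl1, in genes of 273.1 and 238.8 kb.

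Cadm1 (chr9:47338256-47665720, plus strand) codes for a nectin-like molecule found at synapses and on epithelial cells and mast cells. It held 13 peaks in replicate 1 and 11 in replicate 2, and all 10 of its shared regions lay in intron 1, between 59.8 and 205.9 kb from the TSS. The strongest, at 205.9 kb, had 22.9 in replicate 1 and 22.3 in replicate 2 (22.6 ± 0.487, SD, n = 2), with a rank of 268 of 16024. At 59.8 kb the values were 13.9 and 15.9 (14.9 ± 1.39, SD, n = 2). This region was also the shared region nearest to a Cadm1 TSS, and no shared region lay in a Cadm1 promoter. The replicates differed little along this intron, with ratios of 0.846 to 1.36 and a median of 1.09. Peaks of 1 replicate alone were 3 in replicate 1 (4.28 to 5.42) and 1 in replicate 2 (5.36).

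Over all 52 shared regions the median fold enrichment was 6.83 in replicate 1 and 7.68 in replicate 2, against 5.94 and 6.44 over all 16024 shared regions. The median of the mean over replicates was 7.25 (lower quartile 5.23, upper quartile 9.98) at the 8 genes and 6.23 overall. The range at the 8 genes ran from 3.49 to 40.7, which covers most of the range of all shared regions, 2.13 to 59.0. Spearman's rho between the replicates was 0.850 over the 52 regions and 0.847 over all shared regions. Without Ncam1, chosen in part for a peak of replicate 1 alone, it was 0.917 over 44 regions. These correlations are across regions of the same pair of libraries and are given without a test. In all, 51 of 52 pairs were within 2-fold of each other (98.4% overall), and the pair outside was the Ncam1 region at 21.2 kb. The paired summits were a median of 22.5 bp apart, against 24.0 bp overall.

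**Figure D4:**
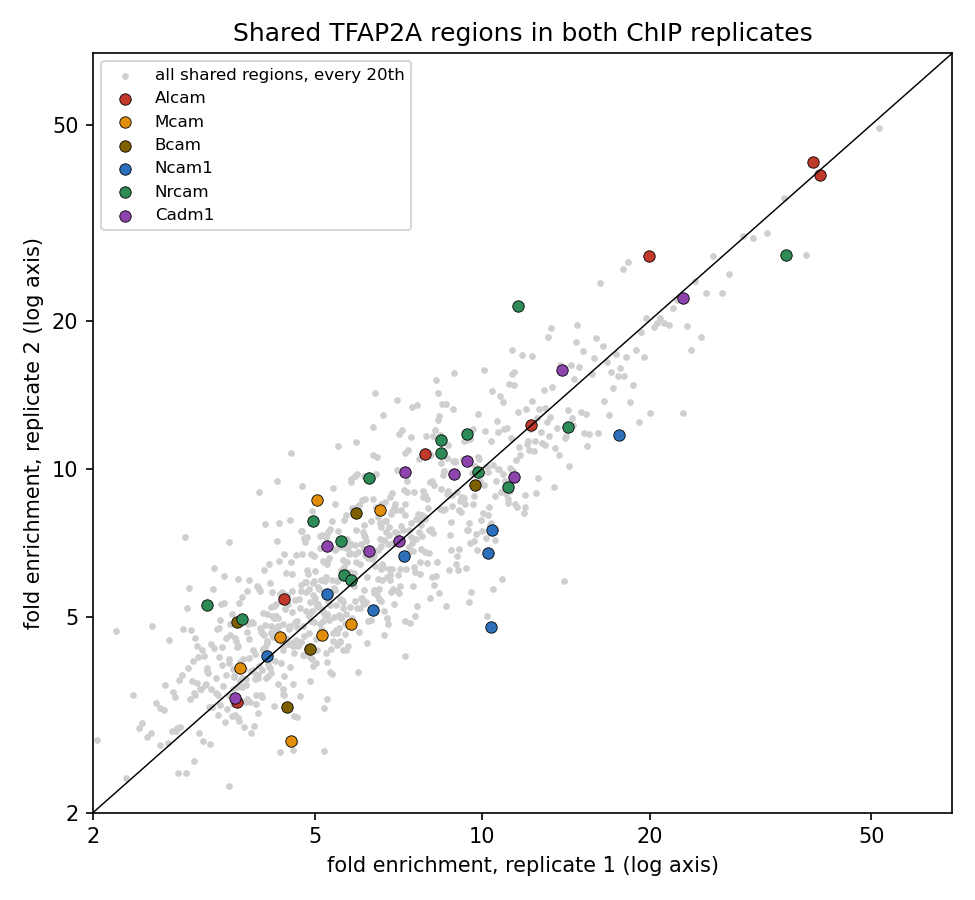
Fold enrichment of shared regions in replicate 1 (x axis) and replicate 2 (y axis), both on log axes, with regions of the 6 genes in colour, every 20th region of the whole list in grey and equal values on the line. Both top Alcam regions lie near the line at about 40, the Ncam1 points lie mostly below it and most Nrcam points above it.

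By position, 14 of the 52 shared regions (26.9%) lay in a promoter of any gene, 36 (69.2%) in an intron and 2 (3.85%) between genes, and 0 had its summit in an exon, which the exact interval allows up to 6.85%. Over all shared regions the shares were 28.8%, 37.3%, 32.0% and, in exons, 1.87%. The rule favours positions inside genes, so the high share in introns follows in part from how the regions were taken. The 14 promoter regions had a median mean enrichment of 5.10 and the other 38 had 8.76, in the order also seen over all shared regions (5.24 and 6.67). Of these 14 promoter regions 11 lay in the windows of Mcam and Bcam, mostly at other genes, and 1 of the other 38 did, so the medians also set those windows against the 4 long genes. The promoter share was 8.11% with gene bodies alone and 11.5% with promoters of 1 kb to each side of a TSS. Counted by the gene itself, before promoters were set apart, introns of the member held 37 regions, 26 of them in intron 1. At the 4 long genes that had shared regions, Alcam, Ncam1, Nrcam and Cadm1, 36 of 40 shared regions were inside the gene. At Mcam and Bcam 1 of 12 was.

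Of the 52 shared regions 32 held a TFAP2 site no more than 50 bp from the summit, or 61.5% (exact interval, 47.0 to 74.7%), against 57.1% of all shared regions. Windows of the same length 400 bp to the left and right of the same summits held one at 6 and 9 of 52, or 11.5% and 17.3%, and at 15.0% and 15.5% over all shared regions. By gene, the site was present at 5 of 7 regions at Alcam, 4 of 7 at Mcam, 5 of 5 at Bcam, 5 of 8 at Ncam1, 8 of 15 at Nrcam and 5 of 10 at Cadm1. Regions with the site had a median mean enrichment of 7.74 and those without it 7.03, a small gap beside quartiles of 5.22 to 10.2 and 5.29 to 9.89. The share depends on the letters searched: the longer site GCCNNNGGC was at 17.3% of the 52 regions.

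Sites of other factors were counted in the same windows. They differ from the TFAP2 site in length and letters, so their shares cannot be ranked against its share. The AP-1 site TGACTCA was within 50 bp of the summit at 4 of the 52 (7.69%, against 6.38% of all shared regions), the TEAD site GGAATG at 7 (13.5% against 10.5%), a SOX site, ACAAAGG or ACAATGG, at 3 (5.77% against 5.22%) and the M-box TCATGTG at 2 (3.85% against 2.00%). The E-box CACGTG was at 0 of the 52 (exact interval up to 6.85%) and at 1.78% of all shared regions, and the control letters CGGNNNCG were at 1 (1.92% against 5.94%). In the 104 windows 400 bp to the left and right of the 52 summits, the AP-1 site was at 1 (0.962%). The TEAD site was at 6 (5.77%) and a SOX site at 4 (3.85%). The M-box, the E-box and the control letters were at 2 each (1.92%). These counts are small and regions of 1 gene are not independent, so no difference was tested.

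The 100 kb limit set which regions were counted. The farthest region inside it lay 97.0 kb past the end of Mcam, near Ccdc153, with 4.33 and 4.54, and the nearest outside it lay 107.2 kb upstream of Cadm1, with 10.9 and 5.94.

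For comparison, 50 other adhesion genes of the immunoglobulin superfamily were taken through the same steps. A shared region was present in the window of 38 of them (76.0%) and in the promoter of 7 (14.0%), beside 71.7% and 17.0% of all protein-coding genes. Per 100 kb of window their median was 0.476 shared regions, where all protein-coding genes had a median of 0.815 and the 8 genes, chosen in part for their peaks, 1.81. Jam2, Clmp, Kirrel, Kirrel3, Nptn and Cd47 were among those with a promoter region. In the L1 family, L1cam and Nfasc had 3 shared regions each, the strongest 20.0 and 22.9 at L1cam. Only 1 of 6 contactins, which bind L1 family members, had a shared region, Cntn4, with 20.2 in replicate 1 and 11.2 in replicate 2. Among the relatives of Cadm1, Cadm4 had 7, Cadm2 had 2 and Cadm3 had 0.

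The IgLON genes had 3 at Ntm, 2 at Opcml, 1 at Negr1 and 0 at Lsamp, in windows of 848.8 to 1334.6 kb. Ntm held 3 peaks in replicate 1 and 17 in replicate 2, a wider gap between the replicates than the 14 and 8 of Ncam1, and its strongest shared region had 3.87 and 15.4. Of the nephrin family Kirrel3 had 12, 9 of them inside the gene, Kirrel had 5 and Kirrel2 had 1. In the Dscam and sidekick group Dscaml1 and Sdk2 had 4 each and Sdk1 had 3, with the strongest Sdk1 region at 24.1 and 21.2. Among the leukocyte and endothelial genes Icam5 had 8, Pecam1 had 5 and Icam1 and Icam4 had 4 each, none of them inside the gene, and Icam1 and Icam4 list the same strongest region. Among nectins Pvrl2 had 6, Pvrl3 had 2 and Pvrl4 had 2, but the strongest region listed for Pvrl2 is the one described at Bcam, whose window it overlaps. Likewise the strongest region listed for Thy1, which had 5, is the Usp2 region of the Mcam window.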

How the data were processed

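TFAP2A ChIP-seq of melan-a cells was measured in 3 samples, 2 ChIP replicates and 1 input. Per the labels, mouse reads were processed on mm9, and the submitters' processing notes name BWA and MACS 1.4.2, with roles and parameters not given in the sources used here. The lists have narrowPeak columns with a q-value and a summit offset, a layout that MACS 1.4.2 is not known to write, so which program and settings made the printed fold enrichments and summits is uncertain. For each ChIP replicate the authors deposited a separate peak list. Deposited values were the ratio of the peak to background (its fold enrichment), -log10 p-values, -log10 q-values and scores, where a score is 10 times the -log10 p with decimals dropped. The lowest fold enrichment listed was 2.01 in replicate 1 and 2.00 in replicate 2. The lists hold no read counts, so depth and the precision it gives are unknown, and no table of the input was analysed here.

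Peaks of both replicates that overlapped by at least 1 bp were merged (Python 3.11.15, pandas 2.3.3), and a merged region took the strongest peak of each replicate for its values and the replicate 1 summit where it had one. Genes, TSSs and introns came from GENCODE mouse version 1 on NCBIM37 (mm9), which is also the genome from which the sequences were read. The reference transcript of a member was the one with the longest coding sequence among those that span at least 90% of the gene. Intervals for shares are exact Clopper-Pearson intervals (SciPy 1.17.1). The merging and site search were tested on simulated data. No test between groups was possible, since both ChIP samples belong to 1 group.

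The 8 genes, the list of 50 other genes and all choices were made with earlier results of these data known. The text names all 8 members and, for each, its counts, its strongest shared region, the shared region nearest to its own TSS and its strongest peak of 1 replicate alone, the 10 strongest shared regions over all members, 1 region to each side of the 100 kb limit, genes that overlap or lie nearest to a described region, and from the list of other genes those with the most shared regions in a family (up to 3) or with a promoter region. Some genes that this rule would name are not reported here. No genes of like pattern were named, since 1 condition gives no pattern to compare. Alternatives tried were stricter peak sets, stricter overlap, other windows, sites and promoter definitions, and each replicate alone.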

Additional observations from a re-analysis of the deposited data

How the results depend on the processing

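Of 64 alternative values over 8 results, 43 stayed within the replicate spread or counting error and 21 moved. The number of genes with a region was recomputed under 9 of the 14 settings and was 5 to 7. With the upper 50% of each list by fold enrichment, there were 32 shared regions, 88.9% of replicate 1 peaks were shared, the median enrichment was 9.72, 56.2% held a TFAP2 site and 15.6% lay in promoters. With a reciprocal overlap of 50%, 79.7% of replicate 2 peaks were shared. With summits within 100 bp, 76.9% and 78.1% of replicate 1 and 2 peaks were shared. With gene bodies alone, the median enrichment was 8.97 and 8.11% lay in promoters, and with 50 kb to either side these values were 8.49 and 22.2%. With regions whose nearest protein-coding TSS was the member's, 77.8% of replicate 1 peaks were shared, the median was 8.52, 57.1% held a site and 14.3% lay in promoters. The longer site GCCNNNGGC was at 17.3%, the site within 100 bp of the summit at 75.0%, and promoters of 1 kb to each side held 11.5%. Using replicate 1 or 2 alone gave 64 to 65 regions, 6 to 7 genes, medians of 5.82 to 6.78, sites at 53.8 to 59.4% and promoters at 24.6 to 28.1%. Except where fewer regions, a longer site or another window changes the count by construction, the cause was not tested. Ranks by -log10 p in place of fold enrichment gave a median of 34.1% from the top, against 34.0%. No paired analysis was possible because the input has no table and the result comes from no test. The lists hold no reads, so no level can be given for a region where a replicate has no peak.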

Other observations

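The 37 shared regions inside the gene bodies included 14 of Nrcam, 10 of Cadm1, 7 of Alcam, 5 of Ncam1 and 1 of Mcam. Neighbouring shared regions were a median of 16.1 kb apart at Cadm1, 24.0 kb at Alcam and 39.1 kb at Ncam1. The closest neighbours at the 8 genes, 1201 bp apart, were the Nrcam regions in introns 8 and 9, with 3.70 and 4.94 at the former and 11.6 and 21.4 at the latter.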
